A study of Mus musculus with 14 samples.

Results

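Interferon response genes are genes that cells switch on after exposure to interferon. The 40 described here were taken by their symbols, as a fixed list of well-known members, and not by their measured values. All 40 stood among the 20207 genes measured. Of them 31 reached a scaled read count (CPM, defined by a fixed total of scaled reads) of at least 1 in at least 2 libraries and were tested, among 11177 genes in all. The 9 others are given below by their reads. Ifih1 and Oasl2 passed this filter through p53-null libraries alone, and Gbp2, Oas1a and Mx2 would not have passed without p53-null libraries. Mx2 passed through treated libraries alone. The counts of tested members are therefore a description and not evidence of a direction.

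RNA was measured at the 3' end of poly(A) transcripts in mouse embryo fibroblasts of strain 129/Sv, which grow as plated monolayers from dissociated embryos. The study asked how the response to damaged DNA differs by genotype, and which genes depend on p53 without damage. Doxorubicin, a topoisomerase II poison that breaks DNA, was given at 0.2 µg/ml for 6 h. The groups were p53-/- cells with doxorubicin (2 libraries), untreated p53-/- cells (2 libraries), wild-type cells with doxorubicin (3 libraries) and untreated wild-type cells (3 libraries), 10 libraries in all. p53-/- cells are called p53-null here. The labels number the replicates without saying whether each came from its own embryo or culture, so the tests see the spread among these libraries alone, which may be technical. The 4 samples of p53 chromatin immunoprecipitation were not analysed here.

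Type I interferons bind the receptor made of Ifnar1 and Ifnar2, and the kinases Jak1 and Tyk2 then activate Stat2, which joins Irf9 in the factor ISGF3. ISGF3 binds the interferon-stimulated response element (ISRE) in promoters of antiviral genes, while interferon gamma acts through the gamma-activated site (GAS). Fibroblasts are a classical source and target of interferon beta, and their cytoplasmic sensors of viral RNA and DNA feed the same response.

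Depth went with genotype. The p53-null libraries held 18098755 to 25969976 reads over the listed genes and the wild-type libraries 9765614 to 11770164, so depth and genotype cannot be told apart. Cdkn1a, a direct p53 target that halts the cell cycle, stood at 53.9 and 44.5 CPM in treated and 31.5 and 29.3 CPM in untreated p53-null libraries, against 4447, 5099.8 and 4075 CPM in treated and 559, 755 and 745 CPM in untreated wild-type libraries. Each library therefore had the Cdkn1a level of its labelled genotype and treatment. Trp53 transcripts were read in both genotypes, and 3' reads outside the deleted stretch check nothing. The 10 fibroblast markers were read in every group, and their shift between genotypes is given with the results. Reads of 4 Y-linked genes summed to 136 and 15 in treated p53-null libraries 1 and 2, 207 and 216 in the untreated ones, 147, 7 and 9 in treated wild-type libraries 1, 2 and 3, and 166, 0 and 2 in the untreated ones. The p53-null libraries numbered 2 thus differed in Y-linked reads although they share a number, and wild-type libraries 1 stood apart from 2 and 3. The calls of members that moved without these libraries are given below.

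Summed over the 40 members, treated p53-null libraries held 758 and 542 CPM and untreated p53-null libraries 564 and 549 CPM. Treated wild-type libraries held 466, 699 and 930.0 CPM and untreated wild-type libraries 315, 455 and 638 CPM. The 4 groups overlapped, and the sum was not tested. Ifi35 and Trim25 alone made up 39.6% to 75.5% of this sum in each library, so it says little about the other members. The heat map of levels shows how far the members differ from each other within a library.

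**Figure D1:**
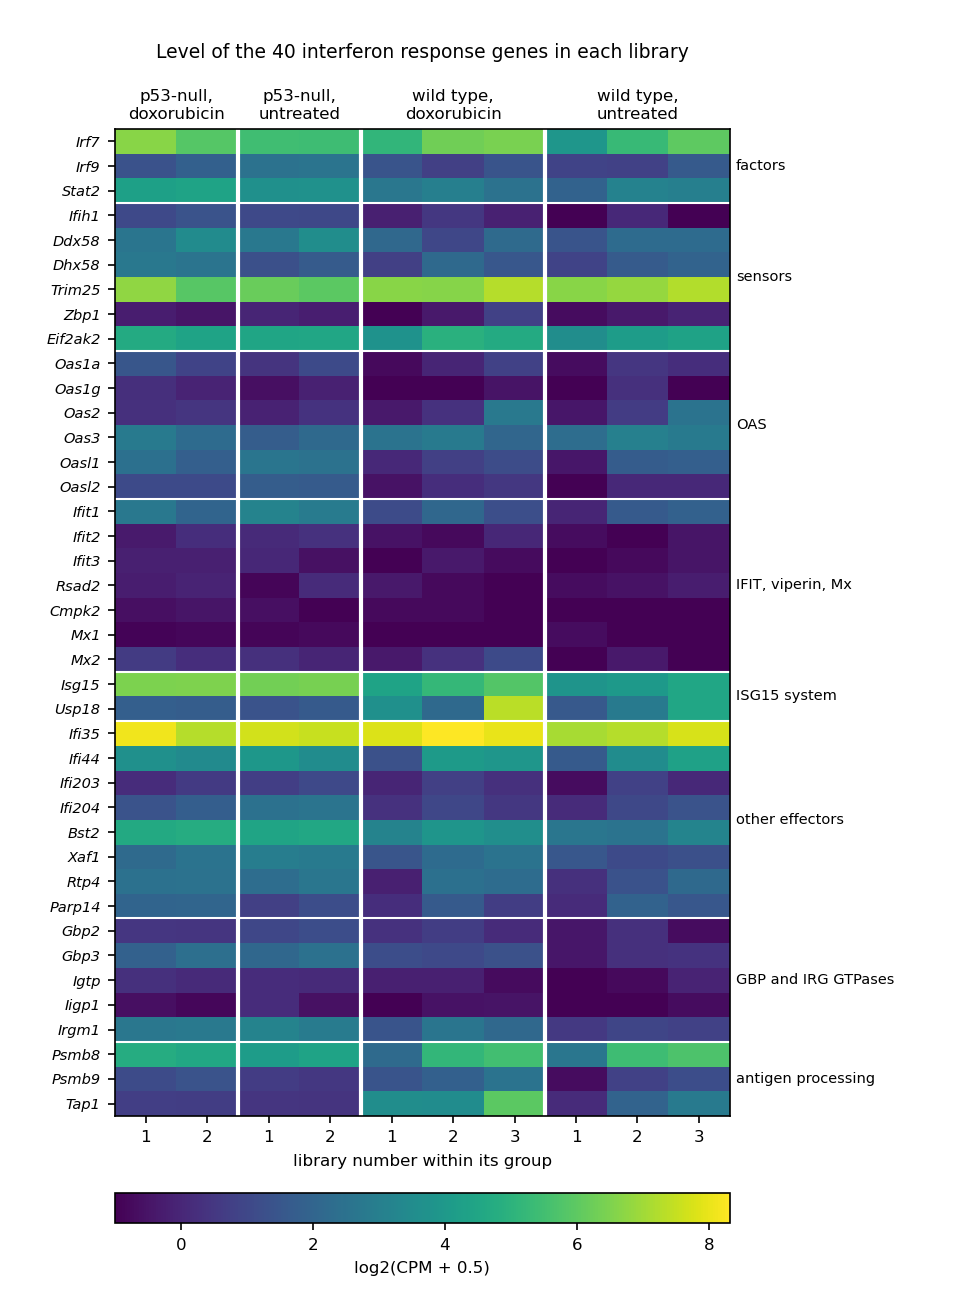
Level of the 40 members as log2(CPM + 0.5), 1 row per gene grouped by role and 1 column per library. Ifi35 and Trim25 form the brightest rows in most libraries, Isg15, Bst2, Irgm1 and Gbp3 are brighter in the 4 p53-null libraries than in the untreated wild-type ones, and Tap1 is brightest in treated wild-type libraries.

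The clearest pattern lay between the genotypes without any treatment. In untreated p53-null fibroblasts 11 of the 31 tested members were higher than in untreated wild-type fibroblasts at an adjusted p under 0.05, and 0 were lower (by limma-voom also 0, with Trim25 alone under an unadjusted p of 0.05). Trim25 was called lower in 5 of the 24 alternative fits, among them median-of-ratios scaling and the fit on only the groups compared. Among all tested genes 20.4% were higher and 12.8% lower by the same test, which is the background for that count. The median log2 fold of the tested members was 0.93 (p53-null minus wild type), against 0.09 over all tested genes. The 11 genes were Isg15, Irgm1, Gbp3, Oasl2, Ifit1, Bst2, Ifih1, Ifi204, Xaf1, Irf9 and Gbp2. Of these, Ifih1 and Oasl2 were tested only because p53-null libraries reached 1 CPM, so their calls are no evidence of a direction. The same holds for Gbp2, which reached 1 CPM in wild type only in treated library 2 and would not have passed without p53-null libraries. Genes that reached 1 CPM in p53-null libraries alone, as Ifih1 and Oasl2 did, were 6.45% of the tested members and 4.59% of all tested genes. All 3 tested GTPases were among the 11, with 3 of 8 other effectors. So were 1 each of 3 factors, 5 sensors, 5 OAS family members, 2 IFIT and Mx genes and 2 genes of the ISG15 system. None of the 3 antigen processing genes passed. Every library of one genotype lay above every library of the other for 17 members higher in p53-null and 2 lower, against 36.1% and 28.8% of all tested genes.

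Isg15, a ubiquitin-like protein that is conjugated to other proteins during the interferon response, stood at 88.0 and 91.7 CPM in treated p53-null libraries, 79.5 and 84.9 CPM in untreated p53-null libraries, 20.6, 36.6 and 55.8 CPM in treated wild-type libraries and 13.7, 16.1 and 22.5 CPM in untreated wild-type libraries. All 4 p53-null libraries lay above all 6 wild-type libraries, and the treated and untreated p53-null libraries lay close together. The log2 fold between untreated genotypes was 2.24 (SE 0.37, adjusted p = 0.00405). Usp18, the protease that removes Isg15 from its targets and restrains the interferon receptor, did not follow it. Usp18 stood at 3.04 and 2.90 CPM in treated p53-null libraries, 2.12 and 2.64 CPM in untreated p53-null libraries, 12.4, 4.10 and 164 CPM in treated wild-type libraries and 2.50, 6.74 and 22.3 CPM in untreated wild-type libraries. Library 3 of treated wild type stood far above every other library, and the untreated genotypes overlapped with a log2 fold of -1.46 (SE 1.26, adjusted p = 0.386).

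Irgm1, an interferon-inducible GTPase that acts against bacteria inside cells, stood at 6.03 and 6.30 CPM in treated p53-null libraries, 8.41 and 6.91 CPM in untreated p53-null libraries, 2.15, 5.58 and 3.91 CPM in treated wild-type libraries and 0.953, 1.44 and 1.24 CPM in untreated wild-type libraries. Its untreated p53-null libraries lay above all 8 others, and its untreated wild-type libraries were the lowest of the 10. The log2 fold between untreated genotypes was 2.26 (SE 0.37, adjusted p = 0.00378). Gbp3, a guanylate-binding protein, stood at 3.19 and 4.75 CPM in treated p53-null libraries, 3.85 and 5.06 CPM in untreated p53-null libraries, 1.78, 1.58 and 1.96 CPM in treated wild-type libraries and 0.238, 0.719 and 0.787 CPM in untreated wild-type libraries. The p53-null libraries did not overlap with the wild-type ones, and the untreated fold was 2.23 (SE 0.33, adjusted p = 0.00276). Gbp2, which helps to break open the vacuoles of intracellular pathogens, stood at 0.873 and 0.850 CPM in treated p53-null libraries, 1.49 and 1.80 CPM in untreated p53-null libraries, 0.748, 1.12 and 0.618 CPM in treated wild-type libraries and 0.238, 0.719 and 0.112 CPM in untreated wild-type libraries, and its untreated fold was 1.38 (SE 0.32, adjusted p = 0.0123). The genotypes were apart for Gbp2 in untreated cells, while its treated libraries overlapped. Gbp3 and Gbp2 rested on few reads in untreated wild type, 17 and 11 over 3 libraries. Their depth-scaled ratios of reads were 7.5 (95% exact interval 4.57 to 13.1) and 4.28 (2.26 to 8.95), which cover counting error only.

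Bst2, or tetherin, which holds budding virus particles at the cell surface, stood at 24.9 and 26.9 CPM in treated p53-null libraries, 21.3 and 23.2 CPM in untreated p53-null libraries, 8.41, 14.0 and 11.7 CPM in treated wild-type libraries and 5.84, 5.30 and 8.77 CPM in untreated wild-type libraries. Every p53-null library was above every wild-type library, and the untreated log2 fold was 1.70 (SE 0.30, adjusted p = 0.00513). Xaf1, which antagonises the apoptosis inhibitor XIAP, stood at 4.17 and 5.29 CPM in treated p53-null libraries, 7.26 and 6.73 CPM in untreated p53-null libraries, 2.24, 4.28 and 5.36 CPM in treated wild-type libraries and 2.38, 1.62 and 1.91 CPM in untreated wild-type libraries. Untreated p53-null libraries were the highest of the 10 and did not overlap with untreated wild-type ones, and the untreated fold was 1.61 (SE 0.36, adjusted p = 0.0106). Ifi204, a DNA-binding protein of the interferon-inducible p200 family, stood at 2.09 and 2.96 CPM in treated p53-null libraries, 5.05 and 5.54 CPM in untreated p53-null libraries, 0.748, 1.49 and 0.927 CPM in treated wild-type libraries and 0.596, 1.53 and 2.14 CPM in untreated wild-type libraries. Its untreated p53-null libraries were the highest of the 10, with an untreated fold of 1.68 (SE 0.40, adjusted p = 0.0126). Sequence reads of the p200 family can be shared between close copies such as Ifi203 and Ifi204, so their split is uncertain.

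**Figure D2:**
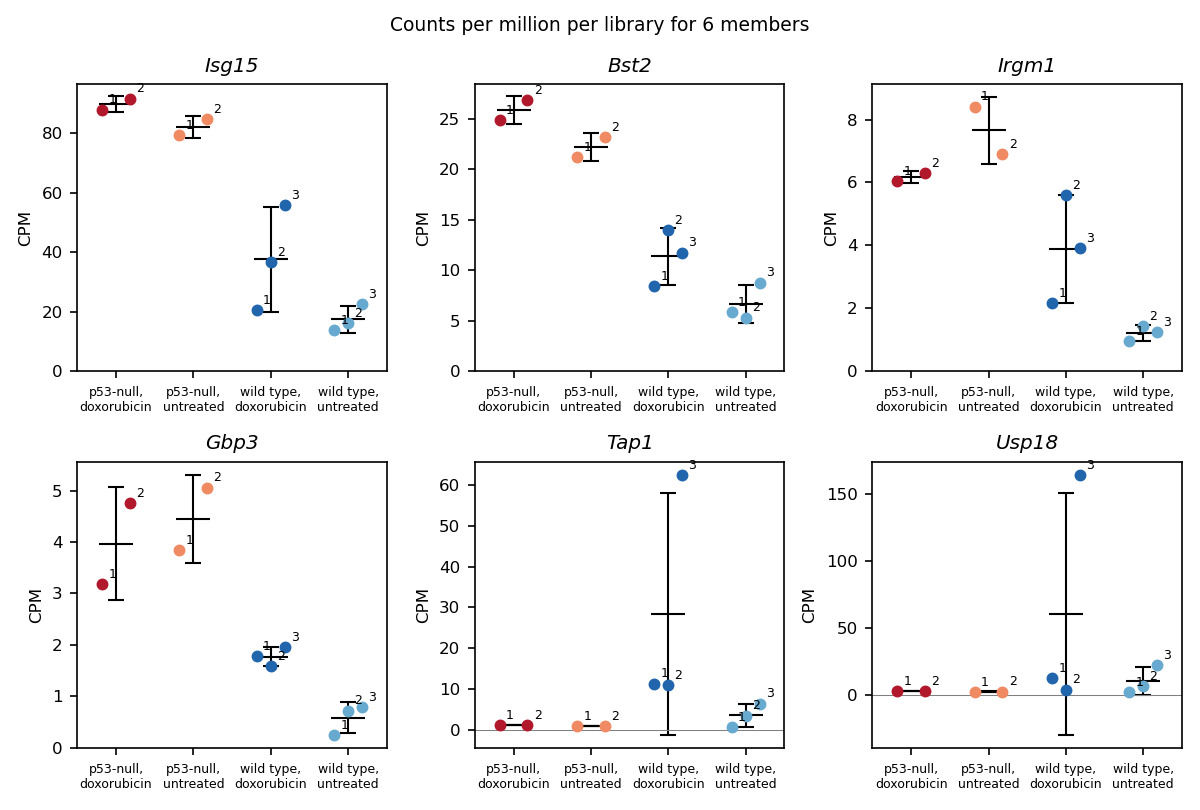
CPM of 6 members in each library, with the mean and SD of each group (2 p53-null or 3 wild-type libraries); small digits give the library number. For Isg15, Bst2 and Gbp3 all p53-null points lie above all wild-type points, while Tap1 and Usp18 are highest in treated wild-type library 3.

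Oasl2, a 2'-5'-oligoadenylate synthetase-like protein, stood at 1.63 and 1.64 CPM in treated p53-null libraries, 2.88 and 2.73 CPM in untreated p53-null libraries, 0.187, 0.652 and 0.927 CPM in treated wild-type libraries and 0, 0.539 and 0.562 CPM in untreated wild-type libraries. The p53-null libraries were all above the wild-type ones, and the untreated fold was 2.01 (SE 0.40, adjusted p = 0.00761). Ifit1, which binds viral RNA lacking the host cap methylation, stood at 6.18 and 3.49 CPM in treated p53-null libraries, 8.46 and 6.77 CPM in untreated p53-null libraries, 1.68, 3.82 and 1.85 CPM in treated wild-type libraries and 0.476, 2.61 and 3.26 CPM in untreated wild-type libraries. Untreated p53-null libraries were above all other libraries and untreated wild-type library 1 was lowest, with a fold of 1.84 (SE 0.57, adjusted p = 0.0328) between untreated genotypes. Without untreated wild-type library 1 Ifit1 did not pass, nor did Irf9 without untreated wild-type library 2. Oasl1, which limits Irf7 translation in mice, stood at 4.93 and 3.02 CPM in treated p53-null libraries, 5.67 and 5.15 CPM in untreated p53-null libraries, 0.561, 1.21 and 1.75 CPM in treated wild-type libraries and 0.238, 2.79 and 3.04 CPM in untreated wild-type libraries. The genotypes did not overlap in either treatment, yet the untreated log2 fold of 1.53 (SE 0.63, adjusted p = 0.0842) missed the threshold. With a replicate block, a term for the library number, Oasl1 passed (adjusted p = 0.0314), as did Rtp4, an interferon-induced transmembrane protein (adjusted p = 0.0414). In that fit 13 members were higher. Between genotypes this term is shared by libraries of the same number in both genotypes, which no label links. Oas3, a synthetase whose product activates RNase L, did not pass and stood at 2.88 and 4.00 CPM in untreated p53-null libraries and 4.53, 7.91 and 6.75 CPM in untreated wild-type libraries, a fold of -0.79 (SE 0.36, adjusted p = 0.112).

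Among the factors, Irf9, the DNA-binding subunit of ISGF3, stood at 2.05 and 3.15 CPM in treated p53-null libraries, 5.24 and 5.45 CPM in untreated p53-null libraries, 2.15, 1.21 and 2.16 CPM in treated wild-type libraries and 1.31, 1.26 and 2.59 CPM in untreated wild-type libraries. Only its untreated p53-null libraries stood apart from the rest, with an untreated fold of 1.45 (SE 0.36, adjusted p = 0.0153). Stat2, the ISGF3 subunit that carries the activation domain, stood at 19.1 and 20.5 CPM in treated p53-null libraries, 12.4 and 12.7 CPM in untreated p53-null libraries, 5.89, 7.54 and 5.15 CPM in treated wild-type libraries and 3.34, 8.36 and 7.53 CPM in untreated wild-type libraries. The p53-null libraries were above the wild-type ones in both treatments, and the untreated fold was 1.00 (SE 0.37, adjusted p = 0.0604). Irf7, the master inducer of interferon alpha genes, stood at 102 and 58.0 CPM in treated p53-null libraries, 43.9 and 42.6 CPM in untreated p53-null libraries, 34.4, 79.1 and 85.7 CPM in treated wild-type libraries and 14.5, 38.1 and 64.4 CPM in untreated wild-type libraries. The groups overlapped across genotypes, and the untreated fold was 0.38 (SE 0.58, adjusted p = 0.629).

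Ifih1, also called MDA5, the cytoplasmic sensor of long double-stranded RNA, stood at 1.59 and 2.08 CPM in treated p53-null libraries, 1.59 and 1.54 CPM in untreated p53-null libraries, 0.374, 0.931 and 0.412 CPM in treated wild-type libraries and 0, 0.539 and 0 CPM in untreated wild-type libraries. Its wild-type libraries were all under 1 CPM and those untreated held 6 reads in all, while every p53-null library was above them. The untreated log2 fold was 1.69 (SE 0.37, adjusted p = 0.00998), and the ratio of reads was 7.41 (95% exact interval 3.23 to 20.9). The RNA-activated kinase Eif2ak2, or PKR, which shuts down translation, stood at 21.8 and 22.6 CPM in untreated p53-null libraries and 11.4, 17.2 and 20.4 CPM in untreated wild-type libraries, a fold of 0.47 (SE 0.37, adjusted p = 0.348). Trim25, the ubiquitin ligase that helps to activate the sensor Ddx58 (RIG-I), stood at 72.4 and 62.2 CPM in untreated p53-null libraries and 101, 113 and 151 CPM in untreated wild-type libraries. Its untreated p53-null libraries lay below the wild-type ones, and the fold of -0.84 (SE 0.31, adjusted p = 0.0641) missed the threshold. Ifi35, a partner of Nmi and the most abundant member on average, stood at 204 and 184 CPM in untreated p53-null libraries and 137, 153 and 216 CPM in untreated wild-type libraries, with a fold of 0.23 (SE 0.29, adjusted p = 0.568).

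Each p53-null group held only 2 libraries, and the untreated count depended on both. Without untreated p53-null library 1, 2 members passed and 420 genes in all. Without library 2, 3 members passed and 490 genes in all, against 3710 genes with both. Without both p53-null libraries numbered 2, 0 of 31 members passed and 216 genes in all, which leaves 1 library in each p53-null group, assumed to vary like the wild-type ones. Under every alternative tried, the fold of each of these 11 members stayed positive. Scaling by library size alone moved the median of all genes to 0.43 and called 14 members higher, and 86.7% of all calls were then higher, against 61.6%. Of 10 fibroblast markers 4 were also called higher in untreated p53-null cells and 0 lower, against 20.4% and 12.8% of all tested genes. The higher ones were Fn1 by 1.93, Pdgfra by 0.93, Col1a2 by 0.91 and Col3a1 by 0.91. Another 2 were lower at an unadjusted p under 0.05 by limma, with every untreated p53-null library below every untreated wild-type one. The lowest marker fold was -1.08. The summed level of the 10 was 5302 to 5523 CPM in untreated p53-null and 3066 to 6631 CPM in untreated wild-type libraries. Of 5 endothelial markers Kdr alone was tested and was higher, with a fold of 1.41 (SE 0.49, adjusted p = 0.048). The endothelial sum was 2.55 to 2.69 CPM in untreated p53-null and 0 to 0.953 CPM in untreated wild-type libraries, where Pecam1, Tek and Emcn were at 0. The part of these markers' cells in the 11 calls was not tested.

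**Figure D3:**
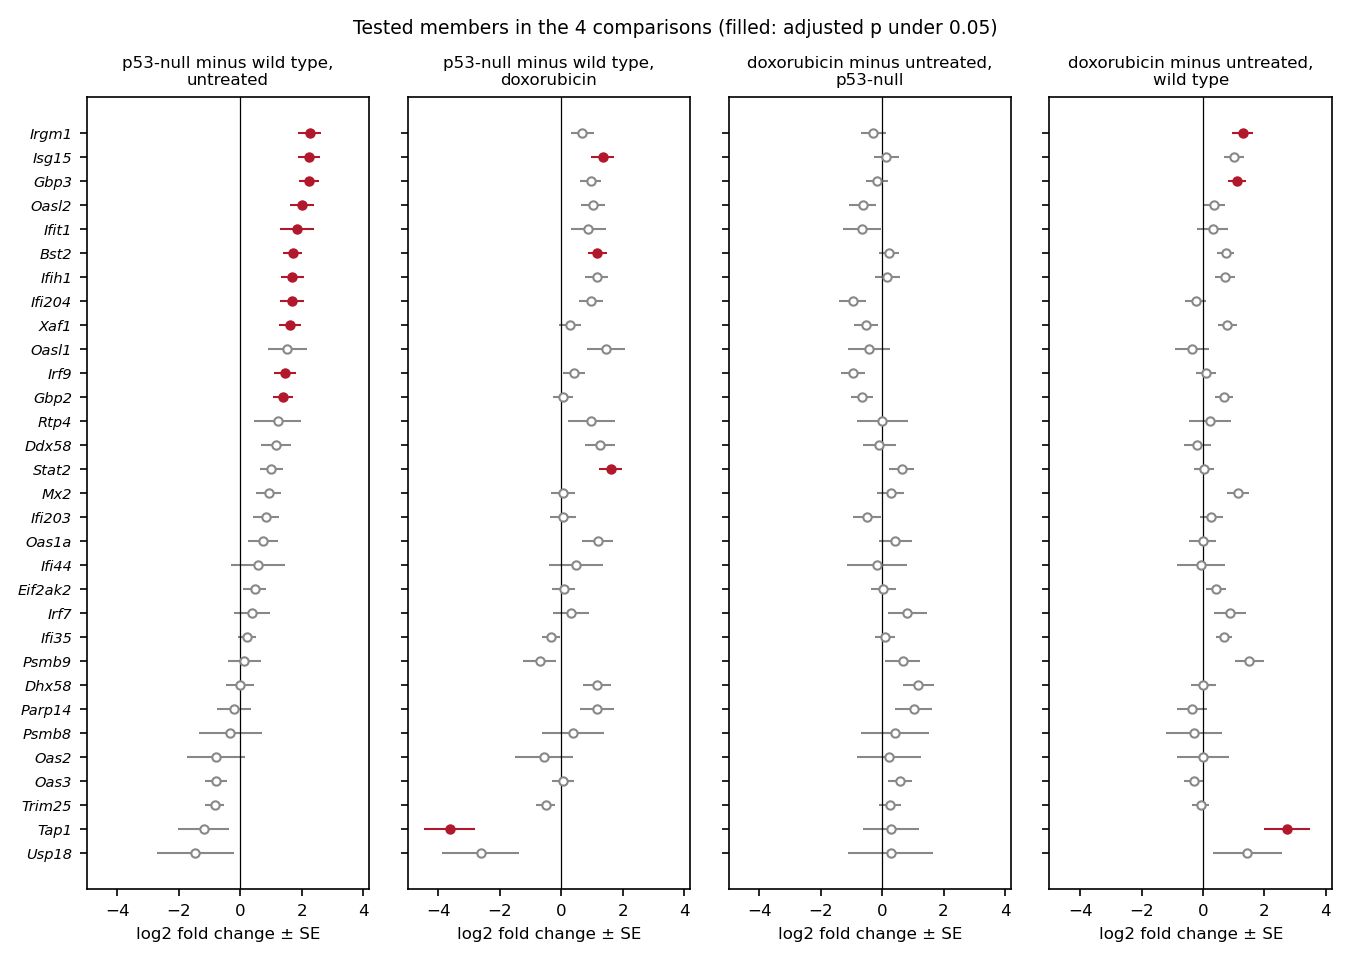
Log2 fold change with its SE for each of the 31 tested members in 4 comparisons; filled red points passed an adjusted p under 0.05. In untreated cells 11 points are filled, all to the right of 0, while the p53-null doxorubicin response has 0 filled points.

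Doxorubicin raised 3 members in wild-type cells, Irgm1, Gbp3 and Tap1, and lowered 0 of the 31 tested, also at an unadjusted p under 0.05. Among all tested genes 8.03% rose and 4.55% fell, so 3 of 31 is near the background in this fit, which does not pair the libraries. With a replicate block, described below, 9 members rose, against 13.6% of all tested genes. The median log2 fold of the tested members was 0.32 (treated minus untreated), against 0.05 over all tested genes. A further 7 members, Mx2, Psmb9, Isg15, Bst2, Ifi35, Xaf1 and Gbp2, had positive folds with an unadjusted p under 0.05. Of these, Mx2 passed the filter through treated libraries alone. For 6 members every treated wild-type library was above every untreated one, and for 0 every one was below, against 17% and 12% of all tested genes.

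Tap1, a subunit of the peptide transporter that loads class I molecules of the major histocompatibility complex, and a p53 target in human cells, stood at 1.18 and 1.13 CPM in treated p53-null libraries, 0.865 and 0.836 CPM in untreated p53-null libraries, 11.3, 11.0 and 62.5 CPM in treated wild-type libraries and 0.596, 3.42 and 6.41 CPM in untreated wild-type libraries. Treated wild-type libraries were the 3 highest, library 3 far above the other 2, and the 4 p53-null libraries lay within a narrow range at the low end. The log2 fold in wild type was 2.72 (SE 0.75, adjusted p = 0.0393). Psmb9, an immunoproteasome subunit whose gene lies beside Tap1, stood at 1.67 and 2.08 CPM in treated p53-null libraries, 1.06 and 0.924 CPM in untreated p53-null libraries, 2.15, 3.16 and 5.36 CPM in treated wild-type libraries and 0.119, 1.26 and 1.80 CPM in untreated wild-type libraries. Every treated wild-type library was above every untreated one, at a fold of 1.50 (SE 0.47, adjusted p = 0.067). The other immunoproteasome subunit, Psmb8, stood at 26.9 and 23.6 CPM in treated p53-null libraries, 17.1 and 20.5 CPM in untreated p53-null libraries, 4.21, 35.7 and 44.6 CPM in treated wild-type libraries and 5.84, 41.9 and 52.1 CPM in untreated wild-type libraries. Here library 1 was lowest in both wild-type groups, the treatments overlapped, and the fold was -0.29 (SE 0.91, adjusted p = 0.87).

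For Irgm1 the wild-type response to doxorubicin was 1.29 (SE 0.33, adjusted p = 0.0298), with all 3 treated libraries above all 3 untreated ones. Gbp3 rose by 1.11 (SE 0.30, adjusted p = 0.0365), with treated libraries close together and above the untreated ones. Isg15 had a log2 fold of 1.01 (SE 0.33, adjusted p = 0.0787), and treated library 1 overlapped with untreated library 3. Mx2, a dynamin-like GTPase against viruses, stood at 0.280, 0.745 and 1.65 CPM in treated wild-type libraries and 0, 0.270 and 0 CPM in untreated ones. That is 27 reads against 3, a depth-scaled ratio of 8.22 with a 95% exact interval of 2.53 to 42.4, and its fold of 1.15 had an adjusted p of 0.0657. Only treated libraries reached 1 CPM for Mx2, so its fold is no evidence of a direction. Ifi35 stood at 227, 318 and 254 CPM in treated and 137, 153 and 216 CPM in untreated wild-type libraries without overlap, a fold of 0.67 (SE 0.26, adjusted p = 0.128).

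The wild-type libraries of the same number moved together, which the replicate block takes into account. With the block 9 members rose in wild type and 0 fell, against 13.6% and 9.64% of all tested genes. They were Tap1 (adjusted p = 0.00214), Psmb9 (0.00688), Isg15 (0.00784), Irgm1 (0.00902), Gbp3 (0.0175), Irf7 (0.0236), Mx2 (0.0321), Ifi35 (0.047) and Ifih1 (0.0498). Mx2 was tested only because treated libraries reached 1 CPM, so its call is no evidence of a direction. Of the 31 tested members 13 (41.9%) were higher in the treated library of all 3 same-numbered pairs, against 31% of all tested genes, and Psmb8 alone (3.23%) was lower in all 3, against 24.5%. The 3 calls without the block were less firm. No member passed when treated library 3, untreated library 1 or untreated library 2 of wild type was left out, with no filter on low values, with limma-voom or with only the wild-type libraries in the fit, and 1 passed without treated library 2 or untreated library 3. These 3 calls also depended on the p53-null libraries, which enter through the shared spread, the filter, the scaling and the adjustment. Over the 24 alternatives the wild-type fold ranged from 1.85 to 3.31 for Tap1. It ranged from 0.99 to 1.62 for Irgm1 and from 0.83 to 1.62 for Gbp3.

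In p53-null cells 0 of the 31 tested members passed after doxorubicin, as did 0% of all tested genes. At an unadjusted p under 0.05 Dhx58, a regulator of RNA sensing, was higher with a log2 fold of 1.18 and Irf9 lower at -0.94, and limma-voom also called 0. The median fold of the members was 0.13, against -0.08 over all tested genes. Dhx58 stood at 6.07 and 5.54 CPM in treated and 1.92 and 2.68 CPM in untreated p53-null libraries. Isg15 differed by 0.13 (SE 0.41), Bst2 by 0.22 (SE 0.33) and Tap1 by 0.29 (SE 0.91). Treated libraries were above untreated ones for 12 members and below for 9, against 25.3% and 28.4% of all tested genes.

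The difference of the doxorubicin responses, p53-null minus wild type, passed for 0 of the 31 members, against 2.34% of all tested genes, 0.447% higher and 1.89% lower. Its median was -0.54 over the tested members and -0.13 over all tested genes. By limma 4 members had an unadjusted p under 0.05, Irgm1 at -1.57 (SE 0.52, adjusted p = 0.133), Gbp2 at -1.33 (SE 0.46, adjusted p = 0.148), Gbp3 at -1.27 (SE 0.47, adjusted p = 0.17) and Xaf1 at -1.32 (SE 0.51, adjusted p = 0.182), and limma-voom called 0. With the replicate block, Irgm1 (adjusted p = 0.0454) and Tap1 at -2.43 (adjusted p = 0.0409) passed, 2 of 31, against 6.32% of all tested genes lower. These 4 genes, and Tap1, had a larger fold in wild type than in p53-null cells. For Irgm1, Gbp3, Gbp2 and Xaf1 every treated wild-type library stayed below both untreated p53-null libraries.

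After doxorubicin 3 of 31 tested members were higher in p53-null than in wild-type cells, Stat2, Isg15 and Bst2, and 1 was lower, Tap1. Among all tested genes 5.25% were higher and 6.82% lower. The median fold of the tested members was 0.48 (treated p53-null minus treated wild type) and that of all tested genes 0.03. Stat2 was higher at 1.61 (SE 0.37, adjusted p = 0.0192), Isg15 at 1.36 (SE 0.37, adjusted p = 0.0407) and Bst2 at 1.18 (SE 0.30, adjusted p = 0.0309). Tap1 was lower at -3.63 (SE 0.83, adjusted p = 0.0193). Gbp3 at 0.96 (SE 0.33, adjusted p = 0.0921) and Irgm1 at 0.69 (SE 0.37, adjusted p = 0.253) missed the threshold, although their treated libraries did not overlap between genotypes. That held for 14 members higher and 3 lower in p53-null, against 21.9% and 20% of all tested genes, the 3 lower ones being Usp18, Psmb9 and Tap1. No member passed without either treated p53-null library or without both p53-null libraries numbered 2. With the replicate block, whose number term both genotypes share here too, Oasl2 was also higher (adjusted p = 0.0412). Scaling by library size alone moved the median of all genes to 0.29, called 6 members and put 68.6% of all calls higher, against 43.5%. Both genotype comparisons and both doxorubicin responses use the same groups, so their folds are not independent of each other.

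Treated and untreated wild-type libraries of the same number stood alike for many members. Of the 31 tested members, 18 (58.1%) were lowest in library 1 in both the treated and the untreated group, against 18.9% of all tested genes. In both groups 12 (38.7%) were highest in library 3, against 17.3%. Tap1, Isg15 and Usp18 were highest in library 3 of both groups, and Psmb8 lowest in library 1. Oas2 stood at 0.280, 0.745 and 6.39 CPM in treated and 0.238, 1.08 and 5.28 CPM in untreated wild-type libraries, and Rtp4 at 0.374, 4.93 and 4.43 and 0.715, 2.07 and 4.05 CPM.

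The 18 macrophage and blood markers found in the table followed a like order among the libraries within each wild-type group. Their summed level was 131 and 90.2 CPM in treated p53-null libraries and 125 and 110 CPM in untreated ones, against 47.7, 233 and 246 CPM in treated and 103, 517 and 548 CPM in untreated wild-type libraries. Of the defining genes Csf1r and Tyrobp were read in all 10 libraries, and 2 of the 18, Emr1 and Cd53, were at 0 in untreated wild type. Untreated wild-type libraries 2 and 3 held more of these transcripts than any p53-null library, while untreated wild-type library 1 lay within the p53-null range. With doxorubicin in wild type, 11 of the 13 tested markers had a negative fold and 0 were called. Their median was -1.06, against 0.32 for the tested members. Between untreated genotypes 1 marker was called higher in p53-null and 1 lower, against 20.4% and 12.8% of all tested genes. In a bulk library, fewer cells of a type and less RNA per cell cannot be told apart. The part of these cells in the levels of the members was not tested. Without both wild-type libraries numbered 1, 10 of the 11 members named above were higher in untreated p53-null cells. In that fit Ifit1 was not called, and Psmb8 was called lower. After doxorubicin in wild type, Irgm1 was the 1 call shared with the fit on all libraries, Tap1 and Gbp3 were not called, and Isg15 and Xaf1 were called higher. Between treated genotypes Bst2 was then not called.

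**Figure D4:**
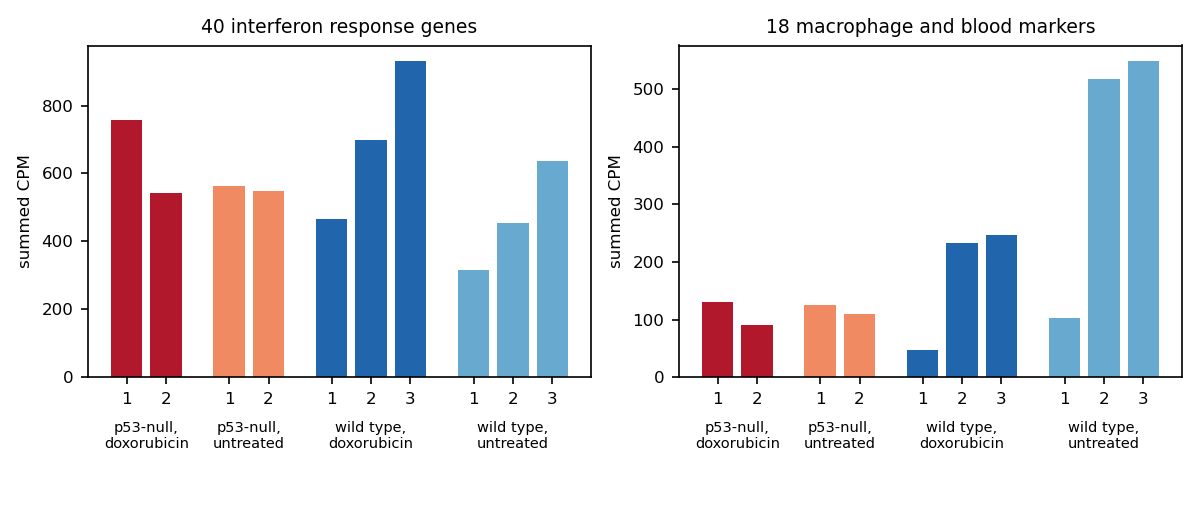
Summed CPM of the 40 members (left) and of 18 macrophage and blood markers (right) in each library, as bars from 0. In wild type both sums are lowest in library 1 and highest in library 3 of each group, while the marker sum of the p53-null libraries lies between 90.2 and 131 CPM.

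The 9 members that were not tested had few reads. Ifit2 had 29 reads in treated and 29 in untreated p53-null libraries, against 8 in treated and 3 in untreated wild type. Ifit3 had 22 and 15 reads in p53-null, against 4 and 3 in wild type. Igtp had 37 and 26 reads in p53-null, against 9 and 5, and Zbp1 16 and 18, against 15 and 8. Rsad2, which encodes viperin, had 23 and 15, against 4 and 6, and Oas1g 32 and 12, against 2 and 8. Iigp1 had 6 and 17, against 4 and 1. Cmpk2 had 11 and 3, against 2 and 0, and Mx1 3 and 3, against 0 and 1, so both were at or near the limit of 3 reads per library. Each p53-null count comes from deeper sequencing, and Oas1g reads can be shared with its near copy Oas1a. At this depth, the strongly inducible members Ifit2, Ifit3, Rsad2, Cmpk2 and Mx1 were close to unread in wild type.

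Of other genes of the interferon pathway, 95 were in the table and 71 were tested. In untreated cells 10 were higher in p53-null than in wild type and 6 lower, against 20.4% and 12.8% of all tested genes, with a median fold of -0.09. With the adjusted p in parentheses, Dtx3l, a ubiquitin ligase that works with Parp9, was higher by a log2 fold of 2.37 (0.000549) and Parp9 by 1.64 (0.00374). B2m, the light chain of class I molecules, was higher by 1.55 (0.0079), the chemokine Cxcl10 by 1.78 (0.00178), the kinase Jak1 by 1.80 (0.00909) and the RNA-processing enzyme Pnpt1 by 1.95 (0.00916). Cxcl10 and Pnpt1 were under 3 CPM in every library. Only the untreated p53-null libraries reached 1 CPM for Cxcl10, and untreated wild type held 1 read. Cxcl10 was thus tested only through the group in which it was called higher, and its call is no evidence of a direction. Parp9 reached 1 CPM in wild type only in treated library 3, so it would not have passed the filter without p53-null libraries. Pnpt1 could be fitted in 22 of the 24 alternatives, so its passing of the filter rested on few libraries. The calls of Parp9 and Pnpt1 are likewise not taken as evidence of a direction. The 6 lower genes were Tmem173, or STING, the adaptor of cytoplasmic DNA sensing, at -2.83 (0.0439), the galectin Lgals9 at -1.51 (0.0193), the Toll-like receptor adaptor Myd88 at -1.31 (0.00957), the kinase Jak2 at -1.25 (0.0426), the factor Irf3 at -0.90 (0.0109) and the RNase H2 subunit Rnaseh2c at -0.56 (0.0468). Of the 24 alternatives, Tmem173 passed in 13, Rnaseh2c in 10 and Jak2 in 9, and with the replicate block Jak2 and Rnaseh2c did not pass.

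Ifnar1, a chain of the type I interferon receptor, showed a far larger difference than any member. It stood at 1137 and 1112 CPM in treated p53-null libraries, 1394 and 1266 CPM in untreated p53-null libraries, 12.3, 8.56 and 14.2 CPM in treated wild-type libraries and 14.7, 12.2 and 12.9 CPM in untreated wild-type libraries. All p53-null libraries were far above all wild-type libraries and treatment made little difference, with log2 folds of 6.60 (SE 0.23, adjusted p = 5.01e-07) untreated and 6.55 (SE 0.23, adjusted p = 2.2e-07) treated. The gene totals do not show where in Ifnar1 these reads lie, so whether they all come from the normal Ifnar1 transcript was not tested, and the values are reads assigned to this symbol. Its partner Ifnar2 stood at 3.85 and 5.63 CPM in untreated p53-null and 3.57, 3.96 and 4.61 CPM in untreated wild-type libraries. The interferon genes themselves were almost unread. All 6 in the table had 0 reads in every wild-type library, where 3 reads correspond to 0.27 to 0.357 CPM, and their sum reached at most 0.2885 CPM in p53-null libraries.

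With doxorubicin, 2 of these 71 genes rose in wild type and 0 fell, against 8.03% and 4.55% of all tested genes, Dtx3l by 1.16 (adjusted p = 0.0103) and the cytoplasmic DNA nuclease Trex1 by 1.09 (0.0237). By limma 0 passed in p53-null cells, with 9 at an unadjusted p under 0.05 and 0 genes of the whole table called by limma-voom. In the difference of responses 0 passed, with 12 at an unadjusted p under 0.05. Between treated genotypes 4 were higher in p53-null and 4 lower, against 5.25% and 6.82% of all tested genes. Ifnar1, Samhd1 and Cxcl10 were among the higher ones, and the lower ones were Pml at -1.99, Trex1 at -1.21, Irf3 at -0.77 and Lgals9 at -1.38. Of the 24 alternatives, Irf3 passed in 11 and Lgals9 in 5, and with the replicate block Lgals9 and Cxcl10 did not pass. Every treated library was under 1 CPM for Cxcl10.

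Promoter windows were read to see which members carry the sequences that interferon-activated factors bind. RefSeq entries on GRCm38.p6, from 250 bases before to 50 bases after an annotated start, were found for 30 members as 34 windows. The ISRE-like motif, GAAA followed by any 2 bases and GAAA, on either strand, was in 17 of 34 windows, against 3.44% of the 32851 windows of all genes. The GAS-like motif TTCNNNGAA was in 7 windows (20.6%), against 8.3%, and the p53 half-site in 5 (14.7%), against 8.36%. Both strands were searched for each motif, and among members only Bst2 had a GAS-like match, 136 bases before the start, that shares bases with an ISRE-like one. Of 10 members with a window that were higher in untreated p53-null cells, 7 held the ISRE-like motif, and of 14 tested members with a window that were not, 6 held it. A match is a description of letters, not a binding site.

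The 5 windows below are those of the 4 members with the lowest adjusted p between untreated genotypes, Gbp3, Irgm1, Isg15 and Bst2, and of Tap1, which responded to doxorubicin in wild type. They read 5′ to 3′ on the strand of the gene, and capitals mark ISRE-like matches. Isg15 lies at chr4:156200769-156201068 on the minus strand, Irgm1 at chr11:48871371-48871670 on the minus strand, Bst2 at chr8:71537423-71537722 on the minus strand, Gbp3 at chr3:142559794-142560093 on the plus strand and Tap1 at chr17:34187306-34187605 on the plus strand.
Isg15: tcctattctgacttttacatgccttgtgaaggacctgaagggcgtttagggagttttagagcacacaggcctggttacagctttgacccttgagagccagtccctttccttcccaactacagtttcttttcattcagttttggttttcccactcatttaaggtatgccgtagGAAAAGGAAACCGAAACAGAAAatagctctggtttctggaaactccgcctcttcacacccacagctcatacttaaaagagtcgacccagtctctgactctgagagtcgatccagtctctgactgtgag
Irgm1: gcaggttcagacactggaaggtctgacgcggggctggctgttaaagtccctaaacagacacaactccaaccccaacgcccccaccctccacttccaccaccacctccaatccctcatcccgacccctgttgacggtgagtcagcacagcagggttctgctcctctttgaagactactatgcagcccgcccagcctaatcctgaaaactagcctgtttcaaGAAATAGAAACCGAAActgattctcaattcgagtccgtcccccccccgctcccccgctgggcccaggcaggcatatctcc
Gbp3: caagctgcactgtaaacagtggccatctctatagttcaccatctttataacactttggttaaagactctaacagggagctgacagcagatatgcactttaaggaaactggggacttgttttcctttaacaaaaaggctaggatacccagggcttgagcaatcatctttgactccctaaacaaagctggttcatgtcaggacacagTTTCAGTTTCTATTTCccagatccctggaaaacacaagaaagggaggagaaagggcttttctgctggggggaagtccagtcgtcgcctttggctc
Bst2: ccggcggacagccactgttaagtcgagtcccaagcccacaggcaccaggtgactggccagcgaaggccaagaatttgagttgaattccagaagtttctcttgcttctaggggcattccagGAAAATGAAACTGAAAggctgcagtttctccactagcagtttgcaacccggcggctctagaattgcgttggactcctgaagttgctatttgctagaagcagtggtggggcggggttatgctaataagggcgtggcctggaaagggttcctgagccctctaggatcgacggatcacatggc
Tap1: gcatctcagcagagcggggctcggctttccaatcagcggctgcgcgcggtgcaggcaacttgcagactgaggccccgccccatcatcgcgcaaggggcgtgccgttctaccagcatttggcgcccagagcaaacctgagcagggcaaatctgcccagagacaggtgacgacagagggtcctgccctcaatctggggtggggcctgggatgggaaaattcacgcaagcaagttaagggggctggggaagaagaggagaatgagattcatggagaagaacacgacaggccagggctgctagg
Isg15 held 3 overlapping matches beginning 78, 72 and 66 bases before the start. Irgm1 held 2 at 30 and 24 bases, Bst2 2 at 130 and 124 bases and Gbp3 2 on the opposite strand at 45 and 39 bases. The other window of Gbp3 held neither interferon motif. Oasl2, next in that order of p, held none of the 3 motifs in its window, and neither did Tap1. The Tap1 start lies 226 bases from that of Psmb9, which is read in the other direction, and their windows share 275 bases. The map of matches shows all members with a match to either interferon motif.

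**Figure D5:**
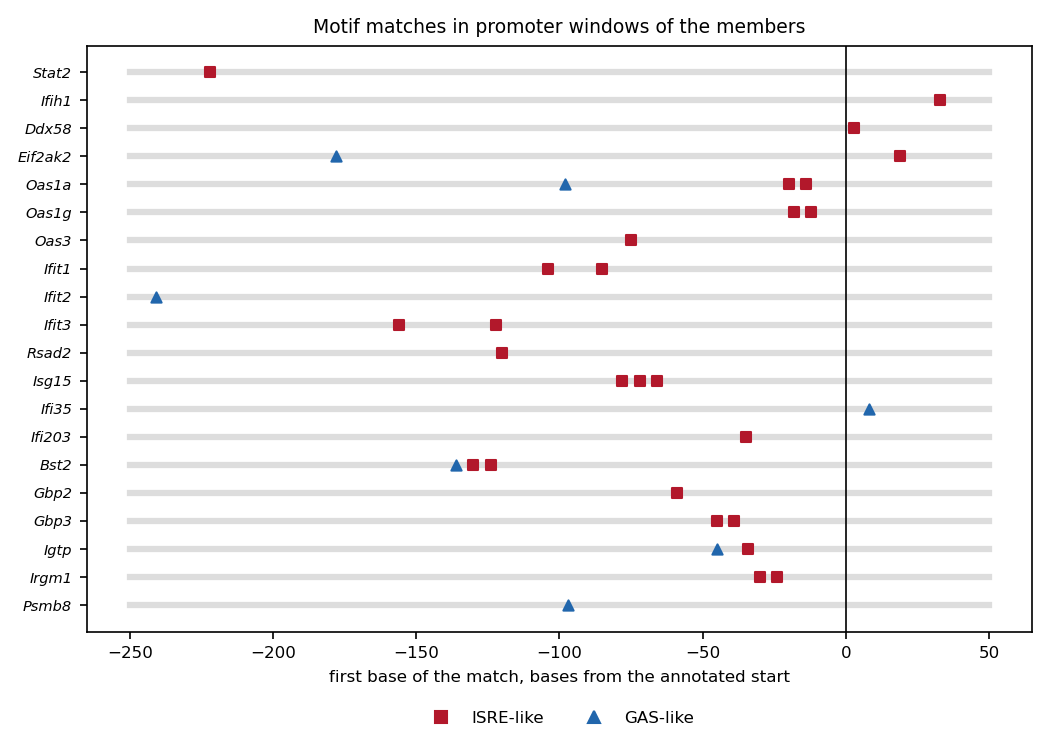
Distance of ISRE-like (red squares) and GAS-like (blue triangles) matches from the annotated start, in bases, for each member with a match; grey bars span the window of 250 bases before to 50 after the start. Most ISRE-like matches lie before the start, with exceptions such as Ifih1, where the match begins 33 bases after it.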

How the data were processed

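The authors deposited 1 headerless column of values per library, 1 for each gene symbol and near log2 in scale, and per the submitters' processing notes these came from DESeq (no version given) on mouse build mm9. The deposited log2 values, the lowest of them -0.0425, follow 1 curve of reads over a library factor. Walking along this curve gave whole reads, and all (100%) of 21304 distinct values below 10000 reads came within 0.01 of an integer. The highest count of a member was 7301 reads. Aligner, strand and annotation were not given in the sources used here. A gene thus cannot be separated from an antisense partner. Recovered reads are computed, not a deposited count table, and no count model was used.

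CPM, the reads of a gene at a fixed scaled library total, used TMM factors (30% of M and 5% of A trimmed). In R 4.3.3, log2(CPM + 0.5) of genes that reached 1 CPM in 2 or more libraries was fitted with limma 3.58.1 with the trend option, with 1 mean per group over all 10 libraries. Adjusted p-values are two-sided, by the Benjamini-Hochberg method over 11177 genes, with a threshold of 0.05. The added 0.5 CPM understates folds of low genes. The fits and the recovery were tested on simulated data. Intervals cover counting error alone, as these reads carry no molecular identifiers and PCR copies are not independent. Promoter sequences are RefSeq's. The list of p53 binding sites was not used, since it gives mm9 positions without gene names.

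The members, lists, tests and the rule for named genes were chosen with earlier results of these data known. The rule gives values per library for each member that passed in any of 5 comparisons and for the 2 most abundant members of each role group, and names up to 8 other pathway genes per comparison by p. A gene that this rule picks is not reported here. Usp18, Psmb9, Mx2, Dhx58, Oas2, Rtp4 and Ifnar2, where outside it, were chosen after their values were seen. Between untreated genotypes all 6 lower pathway genes were named, which goes beyond the 8 of the rule. Tbk1 (log2 fold 1.85) and Trim21 (0.96), also called higher there, were not described.

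Whether replicate numbers pair the libraries was checked from how far their deviations from the group mean correlate over genes. In wild type same-numbered libraries correlated at 0.581, 0.342 and 0.611, so the numbers pair them. In p53-null the value was 0.385 with 2 pairs only, whose Y-linked reads differed, and these were not taken as paired. Alternatives, 22 planned and 2 added after results were seen (each leaving out both wild-type libraries of a number), covered scaling, pseudocount, filter, limma-voom, the libraries in the fit, the block and leaving out libraries.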

Additional observations from a re-analysis of the deposited data

Results flagged for a closer look

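Irgm1 stood out because every treated library lay below every untreated one in p53-null cells and above every untreated one in wild type. Compared by replicate number, 4 other tested members also moved in opposite directions in all pairs of the genotypes. The p53-null numbers were not taken as pairs, and the share of all tested genes that moved in this way was not computed. The count of 4 is therefore a description only. Oasl2, Gbp2 and Gbp3 were higher with doxorubicin in wild type and lower in p53-null. Psmb8 went the reverse way, lower in wild type and higher in p53-null. The treated and untreated libraries of these 4 overlapped in at least 1 genotype. The log2 fold of Irgm1 with doxorubicin was -0.29 in p53-null and 1.29 in wild-type cells, a difference of -1.57 (SE 0.52, adjusted p = 0.133 by limma). The difference did not pass without the replicate block and passed with it (adjusted p = 0.0454). Over the 23 alternatives it could be fitted in, the difference kept its sign and ranged from -1.90 to -1.26, with adjusted p from 0.0454 to 0.424.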

How the results depend on the processing

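No called fold changed sign under any of the 22 planned and 2 added alternatives. The count of members passing in wild type after doxorubicin, 3 in the reported fit, was 5 with upper quartile factors, 0 with no filter beyond 1 read, 0 with limma-voom, 0 with only the groups compared, 0 without both p53-null libraries numbered 2 and 1 without both wild-type libraries numbered 3. Between untreated genotypes 11 members passed, and 0 without both p53-null libraries numbered 2. Between treated genotypes 4 passed, 2 with only the groups compared and 0 without both p53-null libraries numbered 2. Leaving out single libraries gave 0 to 4 in wild type after doxorubicin, 2 to 13 between untreated genotypes and 0 to 5 between treated genotypes. Where this leaves 1 library in a group, it is assumed to vary like the other groups.

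With the replicate block, 9 members passed in wild type after doxorubicin and 2 in the difference of responses. There the block pairs same-numbered libraries within a genotype. Between untreated genotypes 13 passed with it, and between treated genotypes 5. There its number term is shared across genotypes, which no label links. For the difference and for p53-null cells the block rests on 2 pairs that may not share a source. The summed level of untreated p53-null libraries was 658.5 CPM on library size alone, against 556.3 CPM. In the difference of responses 19.2% of all calls were higher, against 8.97% on library size alone and 4.73% with upper quartile factors; between untreated genotypes that share was 73.5% with upper quartile factors. Shallow wild-type libraries limit the members under 1 CPM, where 3 reads equal 0.27 to 0.357 CPM.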
